A study of Mus musculus with 10 samples.

Results

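The 37 genes described here make ribosomes: they transcribe, modify, cut and fold the ribosomal RNA (rRNA) and assemble it with proteins into the small (40S) and large (60S) subunits. They are a curated set of well-known ribosome biogenesis genes, taken by gene symbol from the 57010 genes of the count table, by a rule that uses no measured value. Earlier results of these data were known when this set and the other gene lists were chosen. All 37 were found under a single entry each, and all 37 were among the 18966 genes with enough counts to be tested. The study sequenced mRNA of CD8+ T cells from the spleens of 5 mice. The genotype of 3 mice, called cKO, was Dusp2fl/fl-E8I-cre+/-: both copies of Dusp2, a nuclear phosphatase that acts on MAP kinases, were floxed and the E8I-cre transgene, which is active in CD8+ T cells, was present. The other 2 mice, called control, were Dusp2fl/fl-E8I-cre-/-, so that both groups carried the floxed gene and only the cKO mice carried cre. Loss of Dusp2 and presence of cre therefore cannot be told apart. Cells of each mouse were either stimulated over 24 h by beads carrying anti-CD3/CD28 (activated) or kept 24 h without beads (rested), giving 10 libraries. The beads engage the T cell receptor and the co-stimulatory receptor CD28. The title of the series places the question in the action of DUSP2 on the BAF complex, a chromatin remodeller, and on effector programming. The ages of the mice were not given in the sources used here.

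The libraries held 51203786 to 65135435 counts. Levels are counts scaled to library size (CPM, after TMM normalisation between libraries), given in the order cKO mouse 1, 2, 3 and control mouse 1, 2. For cKO mouse 3, the 2 library titles contradict the remaining labels: one calls the activated library rested, and the other calls the rested library an activated control. The groups used here follow the genotype, treatment and library name. Dusp2 stood at 56.3, 46.4 and 52.6 CPM in activated cKO and 292 and 299 CPM in activated control cells, and at 24.98, 24.8 and 28.1 CPM in rested cKO and 87.8 and 97.4 CPM in rested control cells, so both libraries of cKO mouse 3 lay below every control library. The CD8 T cell markers, 8 genes such as Cd8a and Cd3e, summed to between 3058.5 and 3752.9 CPM in every library. Among markers of other cell types, Cd4 reached at most 1.22 CPM, Ncr1 of NK cells 0.0690 CPM and Lyz2 of myeloid cells 0.949 CPM. Other markers of these lists were higher: Zbtb7b of CD4 T cells reached 31.9 CPM, Cd68 of myeloid cells 15.6 CPM, Klre1 of NK cells 3.996 CPM and Ighm of B cells 354.2 CPM. Sex coincided with the leading number of the mouse name. cKO mouse 3 and control mouse 2 were female and carried the number 119, and the other 3 mice were male and carried 116, so a difference between these mice cannot be assigned to sex or to whatever the number marks.

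Ribosome production begins in the nucleolus, where RNA polymerase I copies the rDNA repeats into a long precursor. Small nucleolar ribonucleoproteins (snoRNPs) then guide methylation and pseudouridylation of that precursor while assembly factors fold and cut it, first in the small-subunit processome and then along separate routes to the 40S and 60S subunits. Resting T cells are small and make few ribosomes, and cells stimulated through the antigen receptor enlarge before they divide. MYC, a transcription factor induced by that stimulus, is known to bind the E-box CACGTG and to act on many genes of this pathway.

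Because the 37 genes moved together, the letters around their start sites were read from RefSeq promoter windows of GRCm38.p6, which run from 250 bases before to 50 bases after each start. Windows were matched for 33 of the 37 genes, and Bop1, Rrp12, Npm1 and Fbl had none. The palindrome CACGTG occurred in 8 of the 33 genes (24.2%), in 1240 of the 10837 tested genes with a window (11.4%), in 18.3% of 104 other assembly genes and in 10.3% of 58 cytosolic ribosomal protein genes. Of the 8, 5 held it after the start and 3 before it. The 6 whose genes rose most on activation in cKO cells are shown, in lower case with CACGTG in capitals. Nop2 is given as the 250 bases before its start (chr6:125131633-125131882, plus strand). The others are up to 30 bases around the match: Tsr1 (chr11:74898092-74898121, plus strand), Utp20 (chr10:88826765-88826789, minus strand), Ltv1 (chr10:13193092-13193121, minus strand), Wdr43 (chr17:71616220-71616249, plus strand) and Pes1 (chr11:3963965-3963994, plus strand).
Tsr1: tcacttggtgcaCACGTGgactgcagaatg
Nop2: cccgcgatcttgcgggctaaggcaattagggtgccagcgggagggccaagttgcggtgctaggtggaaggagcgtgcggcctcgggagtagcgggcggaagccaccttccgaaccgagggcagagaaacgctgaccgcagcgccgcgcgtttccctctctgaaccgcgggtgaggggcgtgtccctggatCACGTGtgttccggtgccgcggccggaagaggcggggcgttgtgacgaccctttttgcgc
Utp20: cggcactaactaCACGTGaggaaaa
Ltv1: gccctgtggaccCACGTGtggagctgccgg
Wdr43: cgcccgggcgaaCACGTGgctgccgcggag
Pes1: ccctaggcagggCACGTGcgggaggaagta
The capitals begin 60 bases before the start in Nop2 and between 3 and 38 bases after it in the other 5. Imp4 held the same letters 121 bases before its start, and Rrn3 held them at 2 places, 215 and 48 bases before it. The related CACGCG, searched on both strands, occurred in 9 of the 33 genes (27.3%) and in 19.3% of the tested genes. It occurred in 35.6% of the other assembly genes and in 17.2% of the cytosolic ribosomal protein genes. CACGTG reads the same on both strands, and neither motif contains the other. In cKO cells the log2 fold change of the 8 genes with CACGTG ran from 0.89 (Rrn3) to 2.41 (Tsr1) on activation. Genes with a window and no CACGTG ran from 0.35 (Wdr12) to 2.99 (Bysl), and the median of all 37 was 1.76. Whether the motif went with the size of the rise was not tested. These matches describe the letters in the windows only. Whether any factor bound there was not measured.

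Activation of the cells, the comparison of activated with rested libraries, raised every one of the 37 genes in cKO cells. In the quasi-likelihood test of edgeR, with p adjusted after Benjamini and Hochberg over all genes tested, 37 of 37 passed an adjusted p of 0.05 in the upward direction in cKO cells, where 31.5% of all tested genes did. In control cells 36 of 37 passed, where 28.5% of all tested genes did. The exception was Wdr12, which passed when the 2 libraries of a mouse were paired by a block (37 of 37). The median log2 fold change was 1.76 (3.38-fold) in cKO and 1.73 (3.32-fold) in control cells, beside medians of -0.01 and -0.00 over all genes tested. The 37 genes together took 9554, 8368 and 10948 CPM in activated cKO and 8249 and 10151 CPM in activated control cells, against 3209, 3201 and 3083 CPM in rested cKO and 3171 and 2971 CPM in rested control cells. The activated and rested sums did not overlap in either genotype. In bulk libraries, more RNA of a gene per cell and more cells of a type that expresses it cannot be told apart. All levels and fold changes here are relative to library size, so amounts of RNA per cell were not measured.

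**Figure D1:**
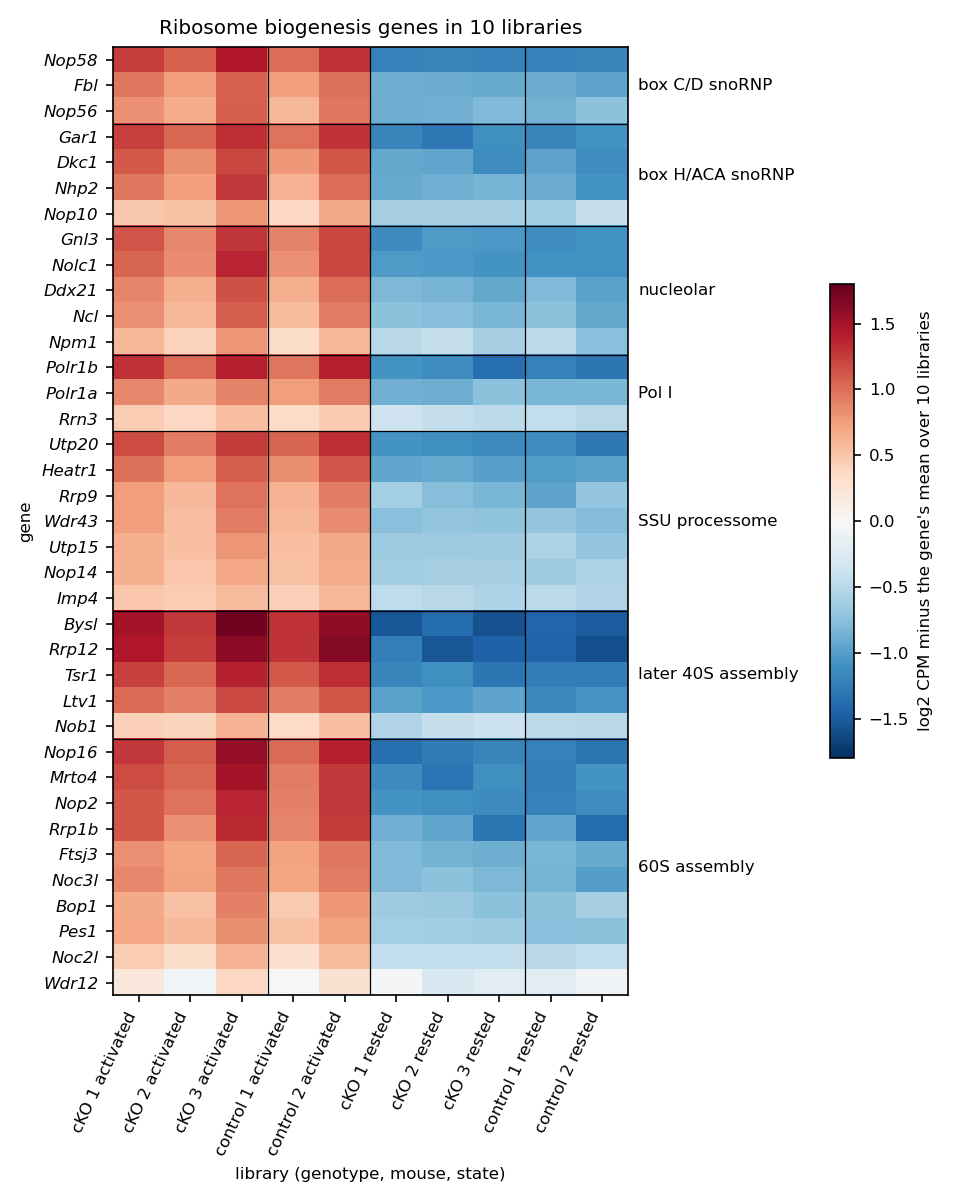
Heat map of the 37 genes (rows, by role and then by size of the change) in the 10 libraries (columns, activated cKO and control, then rested cKO and control); colour is log2 CPM minus the gene's mean over the 10 libraries. Every gene but Wdr12 is red in all activated and blue in all rested libraries, and the palest red columns are those of activated cKO mouse 2 and control mouse 1.

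Gene by gene, every activated library exceeded every rested one for 36 of 37 genes in cKO cells, where 33.5% of tested genes separated that way, and for 37 of 37 in control cells, where 38.7% did. Wdr12 was the gene that overlapped in cKO cells. Within each mouse, all 37 genes were higher in the activated than in the rested library. The per-mouse median of the log2 ratio was 1.73, 1.57 and 1.97 in cKO mice 1, 2 and 3 and 1.58 and 1.93 in control mice 1 and 2. The size of the change varied among the 37 by more than it did between genotypes. It ran from 0.35 (Wdr12) to 2.99 (Bysl) in cKO cells, and from 0.27 (Wdr12) to 2.98 (Rrp12) in control cells. Without cKO mouse 3, the mouse with conflicting titles, 36 of 37 passed in cKO cells and Wdr12 no longer did.

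**Figure D2:**
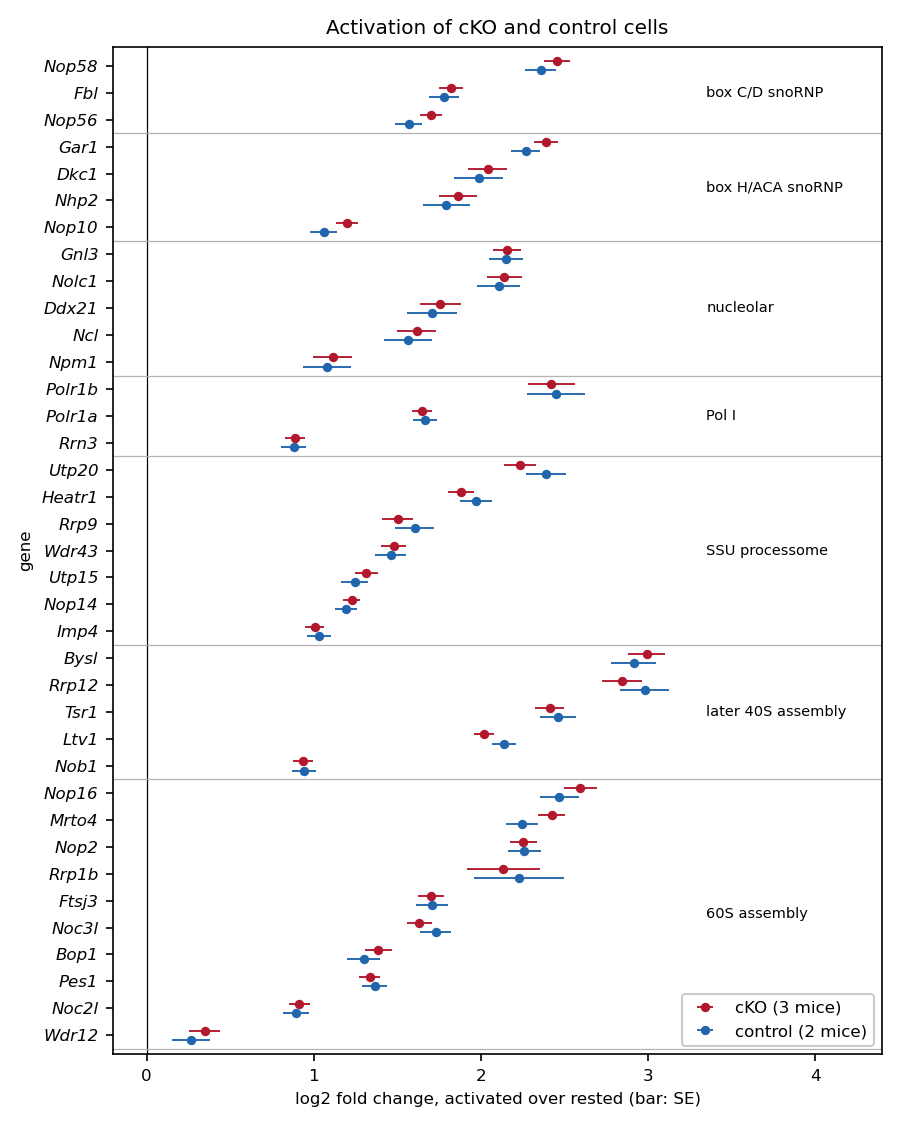
Log2 fold change of each of the 37 genes, activated over rested, in cKO (red, 3 mice) and control cells (blue, 2 mice), with bars of 1 SE, grouped by role. All points lie right of 0, Bysl and Rrp12 lie farthest right, Wdr12 lies nearest to 0, and the red and blue points of a gene lie close together.

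The 3 core proteins of the box C/D snoRNPs, which methylate rRNA at sites chosen by a guide RNA, all rose (median log2 fold change 1.82 in cKO and 1.78 in control cells). Nop56, a scaffold protein of the particle, had 385, 347 and 458 CPM in activated cKO and 331 and 420.1 CPM in activated control cells, against 118, 119.9 and 125 CPM in rested cKO and 121 and 131 CPM in rested control cells. Its activated and rested libraries did not overlap, and its log2 fold change was 1.70 in cKO cells (SE 0.07, 3.25-fold) and 1.57 in control cells (SE 0.08, 2.97-fold). Fibrillarin (Fbl), the methyltransferase itself, had 199, 173 and 214 CPM in activated cKO and 171 and 204 CPM in activated control cells, against 55.5, 55.2 and 54.8 CPM in rested cKO and 55.4 and 53.3 CPM in rested control cells. The rested libraries of Fbl lay within a narrow band and all activated libraries lay far above it, with a log2 fold change of 1.82 in cKO cells (SE 0.07, 3.53-fold) and 1.78 in control cells (SE 0.09, 3.44-fold). Nop58, the partner of NOP56, had 319, 282 and 366 CPM in activated cKO and 272 and 334 CPM in activated control cells, against 58.2, 59.1 and 58.2 CPM in rested cKO and 58.01 and 59.5 CPM in rested control cells. Nop58 rose most of the 3, its groups did not overlap, and its log2 fold change was 2.46 in cKO cells (SE 0.08, 5.48-fold) and 2.36 in control cells (SE 0.09, 5.13-fold). The largest adjusted p in this group (edgeR quasi-likelihood test, Benjamini-Hochberg) was 3.92e-10 in cKO cells (Fbl) and 8.25e-09 in control cells (Nop56). Of the 37 genes, 7 contain snoRNA genes in the table (Nop58, Nop56, Dkc1, Ncl, Gnl3, Wdr43 and Tsr1). For 9 of the 37, the genes that overlap them held counts above 20% of the member's own (Nop56, Dkc1, Nhp2, Gnl3, Rrp9, Heatr1, Bysl, Wdr12 and Bop1). Their values are uncertain where sequence is shared, because the sources used here do not state whether counting used the strand.

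The box H/ACA snoRNPs convert uridine to pseudouridine, and their 4 core proteins rose with a median log2 fold change of 1.95 in cKO and 1.89 in control cells. Nhp2, an RNA-binding core protein, had 83.3, 71.5 and 104 CPM in activated cKO and 66.05 and 86.1 CPM in activated control cells, against 22.9, 23.6 and 24.1 CPM in rested cKO and 23.05 and 20.3 CPM in rested control cells. The states did not overlap for Nhp2, and cKO mouse 3 was the highest activated library. Nop10, the smallest core protein, had 63.2, 64.7 and 78.1 CPM in activated cKO and 58.3 and 72.3 CPM in activated control cells, against 29.7, 29.9 and 29.7 CPM in rested cKO and 29.2 and 33.4 CPM in rested control cells. Nop10 rose least of the 4, yet its lowest activated library was above its highest rested one. Gar1, which helps release the modified RNA, had 85.3, 74.3 and 90.99 CPM in activated cKO and 71.4 and 89.8 CPM in activated control cells, against 16.04, 14.9 and 16.9 CPM in rested cKO and 16.03 and 17.2 CPM in rested control cells. Its libraries separated by state without overlap. The log2 fold change of Nhp2 was 1.86 in cKO cells (SE 0.12, 3.64-fold) and 1.79 in control cells (SE 0.14, 3.47-fold). For Nop10 it was 1.20 in cKO cells (SE 0.07, 2.3-fold) and 1.06 in control cells (SE 0.08, 2.08-fold). For Gar1 it was 2.39 in cKO cells (SE 0.07, 5.24-fold) and 2.27 in control cells (SE 0.09, 4.82-fold). Dkc1, the pseudouridine synthase, lay between them with 2.04 in cKO and 1.99 in control cells. In the quasi-likelihood test of edgeR, Benjamini-Hochberg adjusted, the largest adjusted p among them was 2.15e-07 in cKO cells (Dkc1) and 1.9e-06 in control cells (Dkc1).

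The abundant nucleolar proteins, 5 genes, included the 3 with the highest level per length among the 37 in activated cells. Npm1, nucleophosmin, a histone and ribosome chaperone that shapes the nucleolus, averaged 478 FPKM (counts per gene length and library size) in activated cKO and 434 FPKM in activated control cells, against 211 FPKM in rested cKO and 196 FPKM in rested control cells. In CPM it had 1238, 1085 and 1418 CPM in activated cKO and 1026 and 1240.2 CPM in activated control cells, against 579, 606 and 541 CPM in rested cKO and 588 and 482 CPM in rested control cells. By FPKM it was the most abundant of the 37 in every group. It rose least of the 5, and its states did not overlap. Nucleolin (Ncl), an RNA-binding protein of the early precursor, had 1999, 1708 and 2374 CPM in activated cKO and 1665 and 2132 CPM in activated control cells, against 674, 660.2 and 637 CPM in rested cKO and 676 and 596 CPM in rested control cells. Ncl was second to Npm1 in FPKM in every group, and every activated library was above every rested one. Gnl3, nucleostemin, a nucleolar GTPase, had 261, 216 and 290.03 CPM in activated cKO and 222 and 274 CPM in activated control cells, against 54.1, 58.96 and 58.2 CPM in rested cKO and 54.6 and 56.7 CPM in rested control cells. Gnl3 rose most of the 5, with states that did not overlap. The log2 fold change was 1.11 in cKO cells (SE 0.12, 2.16-fold) and 1.08 in control cells (SE 0.14, 2.11-fold) for Npm1. For Ncl it was 1.62 in cKO cells (SE 0.12, 3.07-fold) and 1.57 in control cells (SE 0.14, 2.96-fold). For Gnl3 it was 2.16 in cKO cells (SE 0.08, 4.46-fold) and 2.15 in control cells (SE 0.10, 4.44-fold). Nolc1, a snoRNP chaperone, and Ddx21, an RNA helicase, had 2.14 and 1.76 in cKO cells. Among these genes, the largest adjusted p (edgeR quasi-likelihood test, Benjamini-Hochberg) was 1.57e-05 in cKO cells (Npm1) and 0.000119 in control cells (Npm1).

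Of the genes for rDNA transcription, Polr1a and Polr1b encode the 2 largest subunits of RNA polymerase I, and Rrn3 encodes the factor that carries the polymerase to the promoter. Polr1b had 142, 116 and 153 CPM in activated cKO and 113 and 152 CPM in activated control cells, against 27.2, 26.5 and 22.5 CPM in rested cKO and 24.8 and 23.5 CPM in rested control cells. Its activated libraries exceeded its rested ones without overlap, with a log2 fold change of 2.42 in cKO cells (SE 0.14, 5.36-fold) and 2.45 in control cells (SE 0.17, 5.47-fold). Rrn3 had 107, 100.5 and 115 CPM in activated cKO and 99.8 and 108 CPM in activated control cells, against 59.996, 57.7 and 56.4 CPM in rested cKO and 57.5 and 55.3 CPM in rested control cells. Rrn3 also separated without overlap, but its log2 fold change was the smallest of the 3, 0.89 in cKO cells (SE 0.06, 1.85-fold) and 0.88 in control cells (SE 0.07, 1.84-fold). Polr1a lay between them at 1.65 in cKO and 1.67 in control cells. Across the group, the largest adjusted p (edgeR quasi-likelihood test, Benjamini-Hochberg) was 6.13e-07 in cKO cells (Polr1b) and 3.57e-06 in control cells (Polr1b).

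The small-subunit processome folds the 5′ part of the precursor, and its 7 members rose with a median log2 fold change of 1.48 in cKO and 1.46 in control cells. Utp20, a large scaffold protein, had 246, 205 and 261 CPM in activated cKO and 226 and 272 CPM in activated control cells, against 51.3, 50.5 and 49.05 CPM in rested cKO and 50.2 and 44.4 CPM in rested control cells. It rose most of the 7 and its states did not overlap. Wdr43, a WD-repeat subunit, had 275, 239.6 and 307 CPM in activated cKO and 245 and 292 CPM in activated control cells, against 96.4, 99.3 and 98.3 CPM in rested cKO and 99.7 and 94.5 CPM in rested control cells. Nop14, a core assembly factor of the particle, had 170.1, 155 and 176 CPM in activated cKO and 157 and 173 CPM in activated control cells, against 70.3, 71.7 and 71.7 CPM in rested cKO and 70.2 and 73.99 CPM in rested control cells. Both of these separated by state without overlap, with little spread among rested libraries. Imp4, which acts with the U3 snoRNP, had 152, 147 and 159 CPM in activated cKO and 144 and 162 CPM in activated control cells, against 78.2, 75.9 and 73.1 CPM in rested cKO and 76.5 and 73.5 CPM in rested control cells. Imp4 rose least of the 7, and its groups did not overlap. The log2 fold change was 2.24 in cKO cells (SE 0.10, 4.71-fold) and 2.39 in control cells (SE 0.12, 5.24-fold) for Utp20. For Wdr43 it was 1.48 in cKO cells (SE 0.08, 2.79-fold) and 1.46 in control cells (SE 0.09, 2.75-fold). For Nop14 it was 1.23 in cKO cells (SE 0.05, 2.34-fold) and 1.19 in control cells (SE 0.07, 2.29-fold). For Imp4 it was 1.01 in cKO cells (SE 0.06, 2.01-fold) and 1.03 in control cells (SE 0.07, 2.04-fold). Heatr1 (1.88 in cKO and 1.97 in control cells), Rrp9 (2.83-fold and 3.04-fold) and Utp15 (1.31 and 1.25) lay between. The weakest call of the group (edgeR quasi-likelihood test, Benjamini-Hochberg adjusted p) was 5.22e-08 in cKO cells (Rrp9) and 3.29e-07 in control cells (Rrp9).

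The factors of later 40S assembly had the highest median among the role groups, 2.41 in cKO and 2.46 in control cells. Bysl, bystin, a factor of pre-40S particles (chromosome 17, positions 47910256 to 47922417 in mm39), had 72.1, 61.8 and 85.4 CPM in activated cKO and 63.1 and 77.6 CPM in activated control cells, against 8.89, 9.85 and 8.65 CPM in rested cKO and 9.48 and 9.06 CPM in rested control cells. It had the lowest FPKM of the 37 in rested cells of both genotypes and the largest rise in cKO cells, 2.99 in cKO cells (SE 0.11, 7.95-fold) and 2.91 in control cells (SE 0.13, 7.54-fold). Its activated and rested libraries stood far apart. Bysl overlaps Ccnd3 in the table, and reads in shared sequence cannot be assigned without the strand. Tsr1, a GTPase-like protein, had 209, 183 and 232 CPM in activated cKO and 191 and 224 CPM in activated control cells, against 39.4, 41.4 and 36.1 CPM in rested cKO and 37.7 and 37.4 CPM in rested control cells. Ltv1, which is released late from the particle, had 109, 100.4 and 122 CPM in activated cKO and 102 and 117 CPM in activated control cells, against 27.4, 26.2 and 27.9 CPM in rested cKO and 23.9 and 25.7 CPM in rested control cells. Both separated by state without overlap. Nob1, the endonuclease that makes the 3′ end of 18S rRNA, had 86.5, 85.2 and 99.2 CPM in activated cKO and 82.4 and 94.3 CPM in activated control cells, against 44.3, 47.8 and 49.3 CPM in rested cKO and 46.03 and 45.7 CPM in rested control cells. Nob1 rose least of the 5, with no overlap. The log2 fold change was 2.41 in cKO cells (SE 0.09, 5.32-fold) and 2.46 in control cells (SE 0.11, 5.5-fold) for Tsr1. For Ltv1 it was 2.02 in cKO cells (SE 0.06, 4.06-fold) and 2.14 in control cells (SE 0.07, 4.4-fold). For Nob1 it was 0.94 in cKO cells (SE 0.06, 1.91-fold) and 0.94 in control cells (SE 0.07, 1.92-fold). Rrp12, which takes part in export of pre-ribosomes, had 2.84 in cKO and 2.98 in control cells. Within the group, the largest adjusted p (edgeR quasi-likelihood test, Benjamini-Hochberg) was 1.34e-08 in cKO cells (Rrp12) and 1.57e-07 in control cells (Nob1).

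Among the 10 factors of 60S assembly the median log2 fold change was 1.67 in cKO and 1.72 in control cells, with the widest range of any role group. Nop16, a nucleolar factor of early pre-60S particles, had 70.1, 62.002 and 86.8 CPM in activated cKO and 58.7 and 76.4 CPM in activated control cells, against 11.3, 12.02 and 12.6 CPM in rested cKO and 12.5 and 11.6 CPM in rested control cells. Its states did not overlap, and its log2 fold change was 2.60 in cKO cells (SE 0.10, 6.04-fold) and 2.47 in control cells (SE 0.12, 5.54-fold). Noc2l, related to a yeast factor of pre-60S transport, had 323, 297 and 364 CPM in activated cKO and 287 and 349 CPM in activated control cells, against 174, 174 and 173 CPM in rested cKO and 167 and 174 CPM in rested control cells. Its states separated with little spread among rested libraries, and its log2 fold change was 0.91 in cKO cells (SE 0.06, 1.88-fold) and 0.89 in control cells (SE 0.08, 1.86-fold). Pes1, pescadillo, had 184, 171 and 204 CPM in activated cKO and 164 and 189 CPM in activated control cells, against 74.4, 73.9 and 72.7 CPM in rested cKO and 67.96 and 68.6 CPM in rested control cells. Its states did not overlap, and its log2 fold change was 1.33 in cKO cells (SE 0.06, 2.52-fold) and 1.37 in control cells (SE 0.08, 2.58-fold). Mrto4, a nuclear relative of the ribosomal stalk protein P0, had 71.2, 64.8 and 89.4 CPM in activated cKO and 59.9 and 76.3 CPM in activated control cells, against 14.5, 12.6 and 14.7 CPM in rested cKO and 13.5 and 15.1 CPM in rested control cells. The states of Mrto4 did not overlap, and its log2 fold change was 2.42 in cKO cells (SE 0.08, 5.37-fold) and 2.25 in control cells (SE 0.10, 4.74-fold). It has 2 named pseudogenes in the table, so reads may be split between copies. Noc3l, a partner of NOC2 in yeast, had 88.5, 79.99 and 93.3 CPM in activated cKO and 79.4 and 91.7 CPM in activated control cells, against 27.9, 28.9 and 27.6 CPM in rested cKO and 27.2 and 24.3 CPM in rested control cells. It too separated by state, with 1.63 in cKO cells (SE 0.07, 3.1-fold) and 1.73 in control cells (SE 0.09, 3.32-fold). Wdr12 (chromosome 1, positions 60108944 to 60137804 in mm39), which forms the PeBoW complex with PES1 and BOP1, had 79.7, 67.3 and 89.5 CPM in activated cKO and 69.5 and 83.7 CPM in activated control cells, against 67.97, 56.6 and 60.2 CPM in rested cKO and 60.9 and 66.2 CPM in rested control cells. The lowest activated cKO library, that of mouse 2, lay just below the highest rested one, that of mouse 1. The log2 fold change of Wdr12 (edgeR quasi-likelihood test, Benjamini-Hochberg) was 0.35 in cKO cells (SE 0.09, adjusted p = 0.00574) and 0.27 in control cells (SE 0.11, adjusted p = 0.0647). With the block by mouse it passed in control cells as well, at 0.26 (SE 0.09, edgeR adjusted p = 0.0285). Its complex partners changed by more, Pes1 as above and Bop1 by 1.39 in cKO and 1.30 in control cells. Wdr12 overlaps Carf in the table and Bop1 overlaps Mroh1 and Scx. Of the others, Nop2, an rRNA methyltransferase, had 2.25 in cKO cells, Rrp1b 2.13 and Ftsj3, a methyltransferase of the 60S precursor, 1.70. By the same test, the largest adjusted p of the group apart from Wdr12 was 0.000129 in cKO and 0.000401 in control cells, both of Rrp1b.

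Other genes of the pathway, taken from lists chosen by function, mostly rose as well. Of 130 tested assembly genes in 4 lists outside the 37, 118 rose and 4 fell in cKO cells, where 31.9% of all tested genes fell, and 116 rose and 4 fell in control cells, where 27.6% fell, with median log2 fold changes of 1.00 and 0.95. The snoRNP assembly genes (11 of 12 rose in cKO cells, median 1.25) included Naf1, which loads H/ACA particles, at 2.16 (SE 0.13). Among small-subunit genes 45 of 47 rose (median 1.00), led by Pno1, a partner of NOB1, at 2.43 (SE 0.08). Among 60S genes 48 of 53 rose and 2 fell (median 1.13). Rrp15, a factor of early pre-60S particles, stood at 2.58 (SE 0.10), while Nop53 and Zfp622 fell by 0.52 and 0.18. Of the RNA polymerase I and rDNA transcription genes 14 of 18 rose (median 0.66), with Ttf1, a terminator-binding factor, and Taf1b, an initiation factor subunit, falling by 0.30 and 0.19. Differences between these lists were not tested. Exosome and trimming genes rose in 14 of 17 cases (median 0.53) and Xrn2, a nuclear exonuclease, fell by 0.48. Of the long non-coding RNAs that host snoRNAs, 13 of 15 tested rose and Snhg20 fell (median 1.18).

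Cytosolic ribosomal protein genes, whose products are the proteins of the ribosome itself, moved in both directions, in shares near or below those of all genes. As levels are scaled to library size, a flat or falling value does not show that RNA per cell was flat or fell. In cKO cells 27 of 79 rose and 19 fell (median 0.04), where 31.5% of all tested genes rose and 31.9% fell. In control cells 21 rose and 16 fell (median -0.00), where 28.5% rose and 27.6% fell. Rps2 averaged 829 ± 87.5 CPM in activated cKO and 794 ± 101 CPM in activated control cells, against 368 ± 19.6 CPM in rested cKO and 381 ± 23.9 CPM in rested control cells (SD, n = 3 cKO and 2 control mice). Rpl39 averaged 237 ± 19.7 CPM in activated cKO and 219 ± 14.4 CPM in activated control cells, against 346 ± 25.1 CPM in rested cKO and 284 ± 38.7 CPM in rested control cells. Rps2 rose by 1.17 (SE 0.08) and Rpl39 fell by 0.54 (SE 0.06) on the log2 scale in cKO cells. RNA polymerase III genes rose in 10 and fell in 3 of 14 cases in cKO cells. The 3 that fell were Polr3gl (-1.30), Maf1, a repressor of that polymerase (-0.83), and Brf1 (-0.46). Of 9 tested genes of the MYC network 3 rose and 5 fell in cKO cells, and 1 rose and 4 fell in control cells. Myc itself had 406, 322 and 396 CPM in activated cKO and 308 and 398 CPM in activated control cells, against 42.2, 37.9 and 32.9 CPM in rested cKO and 38.3 and 34.8 CPM in rested control cells. In edgeR's quasi-likelihood test (Benjamini-Hochberg), its log2 fold change was 3.31 in cKO cells (SE 0.15, adjusted p = 1.05e-07) and 3.27 in control cells (SE 0.18, adjusted p = 7.66e-07). Mxd4, which competes with MYC for its partner MAX, fell by 1.62 in cKO and by 1.49 in control cells.

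**Figure D3:**
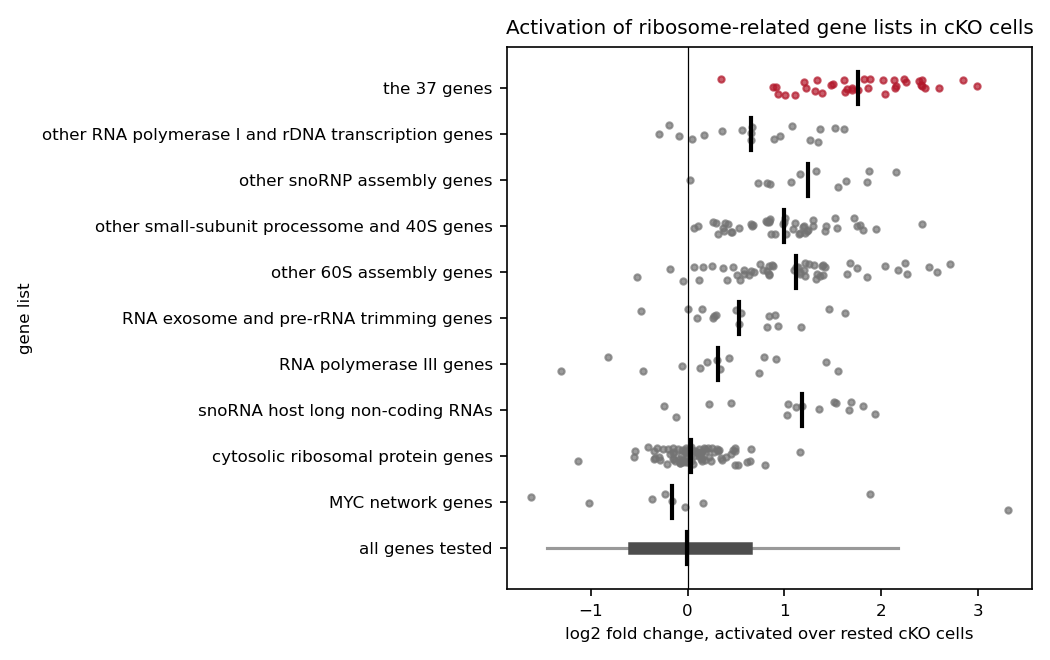
Log2 fold change, activated over rested cKO cells, of each tested gene (points) in the 37 genes (red) and 9 other lists (grey), with black ticks at the medians; for all genes tested, the thick bar spans the 25th to 75th and the thin line the 5th to 95th percentile. The 37 genes centre at 1.76, the other assembly lists at 0.66 to 1.25 and the ribosomal protein genes at 0.04.

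Marker genes moved with activation as well. The 4 CD4 and regulatory T cell markers summed to between 15.8 and 34.9 CPM in activated cKO and 14.7 and 23.4 CPM in activated control cells, against 5.73 to 10.1 CPM in rested cKO and 3.49 to 6.05 CPM in rested control cells. In activated libraries most of this sum was Zbtb7b, and Foxp3 reached at most 0.885 CPM. The CD8 T cell markers summed to 3058.5 to 3279.8 CPM in activated cKO and 3171.8 to 3250.4 CPM in activated control cells, against 3641.4 to 3745.8 CPM in rested cKO and 3596.2 to 3752.9 CPM in rested control cells. The B cell list summed to between 226.5 and 360.8 CPM over all libraries and was almost all Ighm (222.9 to 354.2 CPM), and within each genotype it was lower in activated than in rested libraries. The myeloid list summed to 13.4 to 17.9 CPM in activated cKO and 14.3 to 15.8 CPM in activated control cells, against 9.38 to 13.2 CPM in rested cKO and 12.6 to 13.1 CPM in rested control cells, mostly as Cd68, and it was higher in activated than in rested libraries of each genotype without overlap. The NK and innate-like list summed to 3.87 to 5.35 CPM in activated cKO and 2.26 to 3.596 CPM in activated control cells, against 4.77 to 6.65 CPM in rested cKO and 2.89 to 3.98 CPM in rested control cells. Its states overlapped in each genotype, while in each state every cKO library was above every control library. Erythroid and platelet markers summed to at most 0.174 CPM. The part of these differences in the results on the 37 genes was not tested.

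The genotype comparison asks whether these genes differed between cKO and control cells in the same state. In activated cells none of the 37 passed in edgeR's quasi-likelihood test (Benjamini-Hochberg), where 0.0264% of all tested genes were higher and 0.0158% lower. At an unadjusted p under 0.05 there was 1 of the 37, and 1142 of all genes. The median log2 fold change was 0.07 (1.05-fold) with a range of -0.06 (Utp20) to 0.21 (Nhp2), beside a median of 0.00 over all genes. Of the 37, 32 were positive, as were 9623 of the 18966 tested genes. For none of the 37 did every activated cKO library lie above every activated control library, where 7.7% of all tested genes did, nor below it, where 9.36% did. The activated library of control mouse 2, a female, was above those of both male cKO mice for all 37 genes, so these counts do not bear on genotype. Within mice of 1 sex, 36 of 37 genes (male) and 32 of 37 (female) were higher in activated cKO cells, where 50.4% and 50% of all tested genes were. The male count sets 2 cKO mice together against 1 control mouse, and the female count compares 1 mouse each. Among activated libraries, cKO mouse 2 was the lowest for 15 of the 37 genes, and control mouse 1, the male control, for 22. The male count therefore does not hold for each male cKO mouse. The member with the smallest p was Mrto4, with 71.2, 64.8 and 89.4 CPM in activated cKO and 59.9 and 76.3 CPM in activated control cells. Its log2 fold change was 0.19 (SE 0.08, unadjusted p = 0.0422, adjusted p = 0.821) by edgeR, and its log2 ratio was 0.18 within male and 0.23 within female mice. Nhp2 followed, with 83.3, 71.5 and 104 CPM in cKO and 66.05 and 86.1 CPM in control cells, a log2 fold change of 0.21 (SE 0.12, unadjusted p = 0.119, adjusted p = 0.841) by edgeR, and ratios of 0.22 within male and 0.27 within female mice. Nop56 had 0.12 (SE 0.07, unadjusted p = 0.143, adjusted p = 0.843) by edgeR, with 0.14 within male and 0.12 within female mice.

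In rested cells none of the 37 passed either, in edgeR's quasi-likelihood test (Benjamini-Hochberg), where 0.0264% of all tested genes were higher and 0.0158% lower. At an unadjusted p under 0.05 there was 1 of the 37, and 783 of all genes. The median log2 fold change was 0.05, with 31 of 37 positive, as were 9733 of the 18966 tested genes. Without control mouse 2, 11 of the 37 were positive. Every rested cKO library was above every rested control library for 4 of 37 genes, Nolc1, Ltv1, Pes1 and Noc3l, near the 8.96% of all tested genes that separated that way, and for 0 of 37 below it, where 8.69% did. Ltv1 had 27.4, 26.2 and 27.9 CPM in rested cKO and 23.9 and 25.7 CPM in rested control cells. The groups of Ltv1 were apart by less than 1 CPM, and its log2 fold change was 0.16 (SE 0.07, unadjusted p = 0.0339, adjusted p = 1) by edgeR. Pes1 had 74.4, 73.9 and 72.7 CPM in rested cKO and 67.96 and 68.6 CPM in rested control cells, with 0.13 (SE 0.07, unadjusted p = 0.0893, adjusted p = 1) by edgeR. Noc3l had 27.9, 28.9 and 27.6 CPM in rested cKO and 27.2 and 24.3 CPM in rested control cells, with 0.13 (SE 0.08, unadjusted p = 0.133, adjusted p = 1) by edgeR. The gap between the groups was small beside the activation change for each of these genes.

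Whether activation raised the genes to a different extent in cKO and control cells was asked by the interaction in the same fit. None of the 37 passed, and none of all genes did (0% of 18966), in edgeR's quasi-likelihood test (Benjamini-Hochberg). At an unadjusted p under 0.05 there were 0 of the 37 and 519 of all genes. The median difference of the log2 fold changes was 0.02, from -0.16 (Utp20) to 0.18 (Mrto4). It was positive for 22 of 37, and for 8991 of the 18966 tested genes. The smallest p values belonged to Mrto4 at 0.18 (SE 0.12, unadjusted p = 0.164, adjusted p = 1), Nop10 at 0.14 (SE 0.10, unadjusted p = 0.205, adjusted p = 1) and Ltv1 at -0.12 (SE 0.09, unadjusted p = 0.215, adjusted p = 1), all by edgeR. A p that misses the threshold does not show that the genotypes were alike, and with 3 and 2 mice the SE of an interaction was 0.09 to 0.12 for these 3 genes. Myc differed between cKO and control cells by 0.09 (SE 0.15, edgeR adjusted p = 0.939) after activation and by 0.05 (SE 0.16) at rest.

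**Figure D4:**
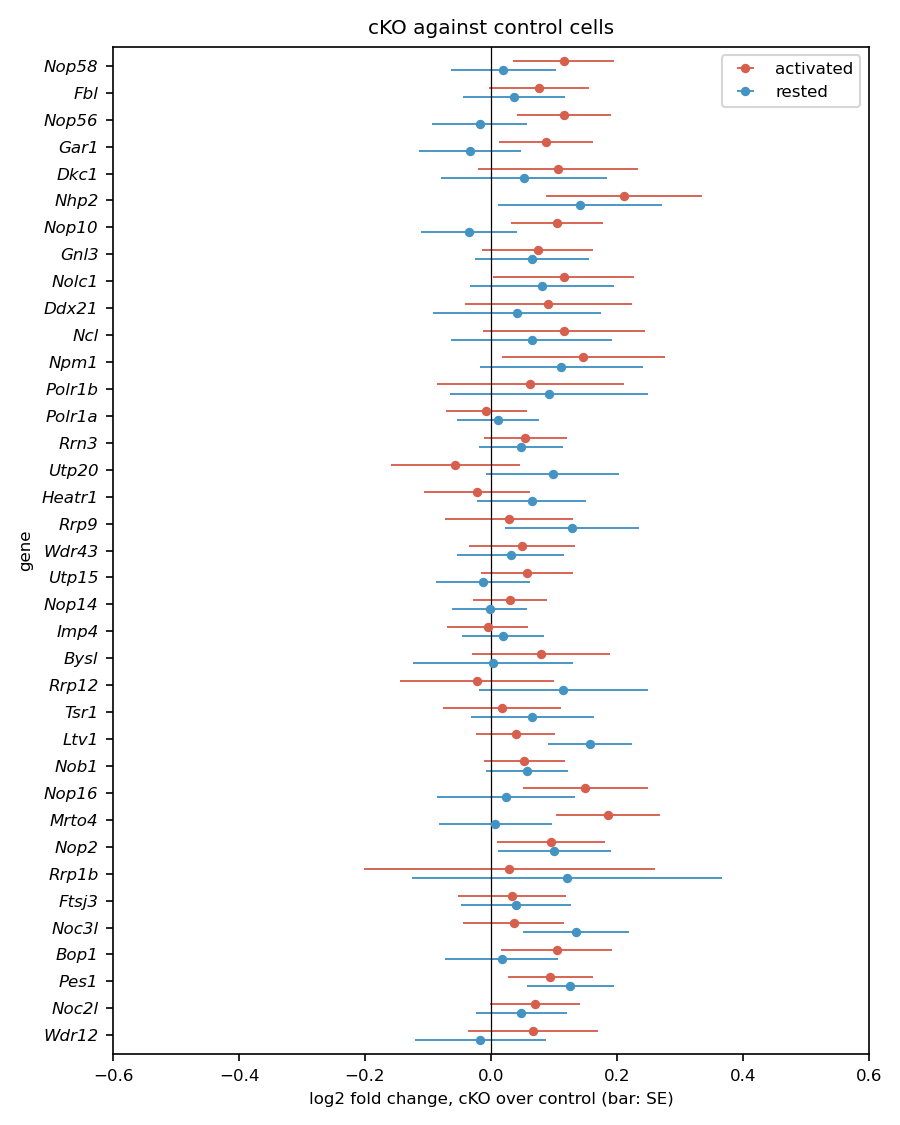
Log2 fold change of each of the 37 genes, cKO over control, in activated (red) and rested cells (blue), with bars of 1 SE. The points lie between -0.06 and 0.21 and none passed the test. In this fit of all mice, 32 of 37 activated and 31 of 37 rested values are above 0. These counts changed when single mice were left out.

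For the 37 genes, the 5 activated libraries differed among themselves more than the 5 rested ones. This was not particular to them. Over all genes with enough counts, pairs within a group had a chi-square per degree of freedom of 18.23 to 45.99 when activated. Rested pairs had 9.23 to 23.28. The ratio of the highest to the lowest of the 5 activated libraries had a median of 1.33 over the 37 genes, from 1.12 (Imp4) to 1.57 (Nhp2), while the 5 rested libraries had a median of 1.12, from 1.03 (Nop58) to 1.45 (Rrp1b). cKO mouse 3 was the highest activated library for 32 genes and control mouse 2 for the other 5, where they were for 27.7% and 16.3% of all tested genes. Control mouse 1 was the lowest for 22 and cKO mouse 2 for 15, where they were for 21.8% and 18.4%. The median deviation from the gene's mean over the activated libraries, on the log2 scale, was 0.02, -0.15 and 0.19 in cKO mice 1, 2 and 3 and -0.17 and 0.11 in control mice 1 and 2. For all 37 genes both female mice were above all 3 male mice after activation, where 20% of all tested genes separated that way. It follows that control mouse 2 alone was above all 3 male mice after activation for the same 37 genes. That count is therefore no separate check, and 30.2% of tested genes separated that way. In rested libraries the female mice were above all male mice for 5 of 37 genes, where 15.1% of tested genes were, and below them for 12 of 37, where 16.8% were.

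**Figure D5:**
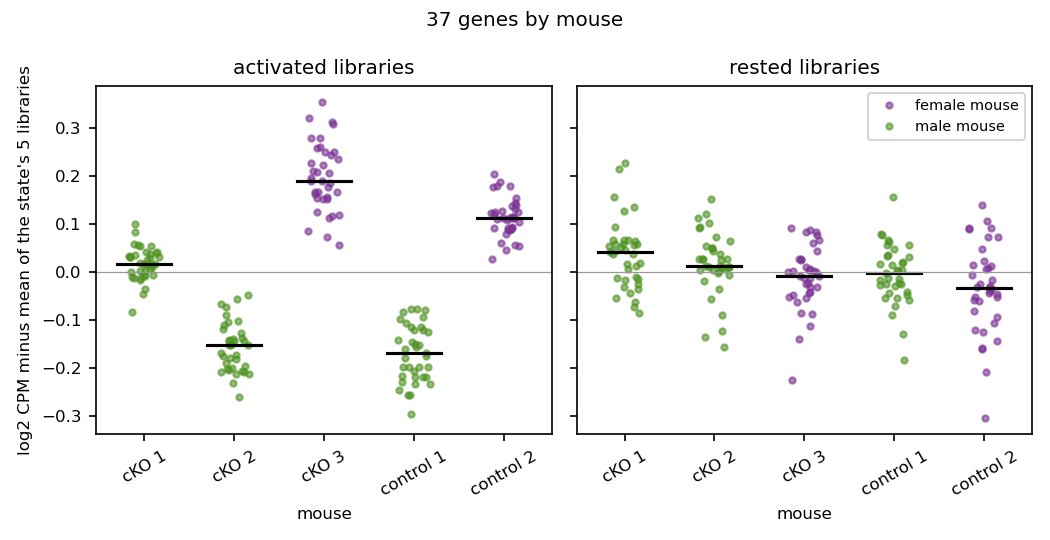
Log2 CPM of each of the 37 genes (points) minus its mean over the 5 libraries of the state, by mouse, with black ticks at the medians; activated libraries are on the left, rested on the right, and colour gives sex. In activated libraries the 2 female mice (median 0.19 and 0.11) lie above the 3 male mice (0.02, -0.15 and -0.17), while the rested medians lie between -0.04 and 0.04.

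After this was seen, a fit with a sex effect in each state was added. It uses the same libraries, so its calls in activated cells are no separate check of that order. The fit used edgeR's quasi-likelihood test (Benjamini-Hochberg). There, 31 of 37 genes were higher in female than in male activated cells, where 6.36% of all tested genes were. The median log2 difference was 0.28 and the range was 0.12 (Imp4) to 0.40 (Nhp2), with all 37 positive. In rested cells 0 of 37 were higher, where 0.659% of tested genes were, and 1 was lower, where 1.59% were. That gene was Rrp1b, at -0.43 (SE 0.08, adjusted p = 0.0111 by edgeR). Rrp1b (chromosome 17, positions 32255074 to 32281839 in mm39) had 125 and 118 CPM in the activated cells of the 2 female mice and 107, 87.3 and 90.7 CPM in those of the 3 male mice. In rested cells it had 19.9 and 18.8 CPM in female and 27.1, 25.8 and 25.8 CPM in male mice, so its order by sex was opposite in the 2 states and did not overlap in either. The rise on activation was larger in female than in male cells for 6 of 37 genes that passed in the same fit, where 0.633% of tested genes did. Of the cytosolic ribosomal protein genes 3 of 79 were higher and 2 lower in activated female cells, where 5.93% of all tested genes were lower. Other 60S assembly genes had 31 of 53 higher, and other small-subunit genes 23 of 47.

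The genotype comparison within each name number compares mice of 1 sex. In activated cells, 36 of 37 genes were positive within 116 (2 cKO mice and 1 control mouse, median log2 ratio 0.10) and 32 of 37 within 119 (1 mouse each, median 0.08), where 50.4% and 50% of all tested genes were positive. In rested cells, 25 of 37 were positive within 116 (median 0.02) and 20 of 37 within 119 (median 0.03). Of all tested genes, 51.8% were positive within 116 and 49.7% within 119 at rest. These values carry no test. The 37 genes share libraries and scaling, so their signs, here and in the fits, are not independent. In the fit with a sex effect per state, 0 of 37 passed between cKO and control activated cells in edgeR's quasi-likelihood test (Benjamini-Hochberg), where 0.163% of tested genes did. There, 12 of 37 had an unadjusted p under 0.05, as had 2173 of the 18966 tested genes, and 35 of 37 were positive (median 0.09), as were 9566 of all tested genes. The smallest adjusted p was 0.188.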

How the data were processed

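The labels' protocols describe stranded mRNA libraries of 10 samples. The submitters' processing notes name Subread, FastQC, MultiQC and mm39, and give no versions. Neither the annotation release nor the strand setting of the counting is stated in those sources. The deposited counts are integers without normalization. The FPKM values deposited beside them follow from the counts, the library total and the gene length plus 1 (largest relative deviation 9.4e-07), where the length joins all exons, so levels between genes depend on that length. FPKM averages served to order the genes and as a test alternative.

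The members and all gene lists were chosen with earlier results of these data known. The count model was edgeR 4.0.16 (R 4.3.3), with TMM factors, genes kept by filterByExpr (18966), and robust quasi-likelihood estimates for the 4 groups and a sex term in all 10 libraries. The biological coefficient of variation was 9.14%, and 5 residual degrees of freedom remained. Adjusted p are Benjamini-Hochberg values over all genes tested, with a threshold of 0.05. The SE was computed back as the log2 fold change over the square root of F. CPM values are not adjusted for sex, while the fitted log2 fold changes are. Library totals of 51203786 to 65135435 counts put 3 counts at 0.0461 to 0.0586 CPM. The lowest count of a member in a library was 443, and counting intervals cover counting error only. No replicate library repeated another: pairs within a group had a chi-square of 9.23 to 45.99 per degree of freedom. Mice of a group are separate animals.

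Both libraries of a mouse come from the same animal, which pairs them. Deviations from their group means correlated at 0.25, 0.15 and 0.33 in cKO mice and 0.36 in both control mice, which mirror each other. Values in every library are given, per role, for the 2 members with the highest mean FPKM and those with the largest and smallest rise in cKO cells, and for the 3 members with the smallest p in each genotype comparison and the interaction. Rrp1b was added after its values were seen. In other lists the 4 genes with the smallest p and those against the list's direction could be named, and Polr1f, Polr1g, Polr1h and Fcf2 were matched by other symbols. Alternatives used limma 3.58.1 and DESeq2 1.42.0, and tables and figures Python 3.11.15. The count test was checked on simulated data. Coordinates of genes are those of the deposited table (mm39), and promoter sequences are RefSeq's of GRCm38.p6.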

Additional observations from a re-analysis of the deposited data

Results flagged for a closer look

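For 6 of the 37 genes the rise on activation differed between mice of different sex in the fit with a sex effect per state, which was added after the activated libraries had been seen. In each case the rise was larger in the 2 female than in the 3 male mice. On the log2 scale the difference was 0.81 for Rrp1b (SE 0.11, edgeR adjusted p = 0.0101), 0.49 for Ddx21 (SE 0.09, edgeR adjusted p = 0.0277) and 0.48 for Npm1 (SE 0.08, edgeR adjusted p = 0.0277). It was 0.47 for Ncl (SE 0.09, edgeR adjusted p = 0.0316), 0.43 for Nolc1 (SE 0.08, edgeR adjusted p = 0.0325) and 0.33 for Ftsj3 (SE 0.07, edgeR adjusted p = 0.0473). Of all tested genes, 0.633% passed in that direction. All 37 genes had a positive difference (median 0.27), beside a median of -0.0013 over all genes. Sex and the name number coincide and cannot be told apart, and 1 of the 2 female mice is cKO mouse 3, whose titles conflict with its other labels. The fit with a sex effect per state did not pair the 2 libraries of a mouse, and no paired form of this contrast was run. These 6 genes are named because they passed.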

How the results depend on the processing

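The number of the 37 genes that passed stayed at 36 or 37 on activation in cKO and in control cells, and at 0 in both genotype comparisons and the interaction, under every alternative run. The scaling was changed to DESeq2 size factors and to library totals, and the filter to none and to 5 CPM in at least 2 libraries. The sex term was left out or given per state, mice were used as blocks, and the fit was limited to the compared groups. DESeq2's Wald test and limma-trend, run on log2(FPKM + 0.5), replaced the test, and each mouse was left out in turn. With the replicate block by mouse, 37 of 37 passed in cKO cells, 37 of 37 in control cells and 0 in the interaction, so the paired fit changed no call except that of Wdr12. A block by mouse gives no genotype value, and fitting only the groups compared gives no interaction. Wdr12 was the only named gene whose call moved. Its rise in cKO cells was 0.24 without cKO mouse 3 (edgeR adjusted p = 0.0754), and its rise in control cells passed under 8 alternatives, with log2 fold changes of 0.26 to 0.33. No direction turned on activation. Between genotypes the signs depended on single mice. With each mouse left out in turn, the positive count of the 37 in activated cells ran from 20 (without control mouse 1) to 37, beside 32 with all mice. In rested cells it ran from 11 (without control mouse 2) to 35, beside 31 with all mice. For the interaction it ran from 6 (without cKO mouse 3) to 35 (without control mouse 2), beside 22 with all mice. Without cKO mouse 3 or control mouse 2 the remaining female mouse alone sets the sex term, and a lone control mouse is taken to vary as much as the rest. The design has 5 animals, so differences of the size seen between genotypes, 0.21 or less on the log2 scale, had SE of 0.06 to 0.25.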

Other observations

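All 79 cytosolic ribosomal protein genes had a positive log2 fold change in activated cKO against activated control cells (median 0.09, range 0.01 to 0.18). In rested cells 75 of 79 were positive (median 0.07), with a wider range of -0.02 to 0.99. Over all 18966 tested genes, 9623 were positive in activated and 9733 in rested cells. None of the 79 passed by edgeR's quasi-likelihood test. An unadjusted p under 0.05 was found for 11 of 79 in activated cells, against 1142 of all tested genes, and for 6 of 79 in rested cells, against 783 of all tested genes. In the fit with a sex effect per state, 74 of 79 were lower in rested female than in rested male cells (median -0.10), as were 9785 of all tested genes. Of the 79, 3 passed in that direction, where 1.59% of all tested genes did. The 79 genes share libraries and scaling, so their signs are not independent.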
